A study of Drosophila melanogaster with 4 samples.

Results

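The clusters described here are the stretches of chromatin bound by Sfmbt near the telomeric ends of the autosomal arms 2L, 3L and 3R. They were chosen by position alone. A cluster of the list for both ChIP replicates combined was a member when its midpoint lay in the first 2 Mb of 2L, the first 2 Mb of 3L or the last 2 Mb of 3R, with arm lengths of 23011544, 24543557 and 27905053 bp from the file headers. This gave 400 members of the 8434 combined clusters. There were 132 on 2L, 157 on 3L and 111 on 3R. The lists called on single replicates had 337 clusters in the same stretches in replicate 1, of 6560 in all, and 320 in replicate 2, of 6508 in all.

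Sfmbt, labelled dSFMBT, was immunoprecipitated with the antibody Q2642 from cross-linked, sonicated chromatin of adult heads. The flies were of the wild-type strain Oregon-R, labelled as the developmental stage Mixed Adult and raised in population cages, with no mutation or treatment in any sample. There were 2 ChIP samples, each with an input chromatin sample, and the inputs were used by the authors as the background of the calls. The heads were sieved from whole adults, so a cluster is a value over the mixed cell types of the head, and no label tells if the replicates were taken from different fly collections. The spread between them may therefore be technical. Positions are those of FlyBase release 5, and every cluster carries 1 score of the authors, on a log2 scale. Read depth is unknown, so no precision per cluster can be given beyond the spread of the 2 replicates.

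Sfmbt is a Polycomb group protein that joins the DNA-binding protein Pho in the Pho repressive complex, which helps to bring the other Polycomb complexes to their response elements. Drosophila telomeres are not made of short telomerase repeats. They are arrays of the retrotransposons HeT-A, TART and TAHRE, and inward of these lie subtelomeric repeats, the telomere-associated sequences, at which Polycomb group proteins are known to bind and transgenes are silenced. Genes of ordinary euchromatin begin close to these repeats. The ends analysed here are the ends of the assembled arms in release 5, and how much of the repeats they hold was not examined.

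The outermost clusters differed between the arms. On 2L and 3R a strong cluster lay 5041 and 5589 bp from the end, and the outer 122 kb of 3L held no cluster. The cluster nearest the 2L end (2L 5042 to 7645) had scores of 2.20 in replicate 1 and 1.87 in replicate 2, with a combined score of 1.80. It was the highest combined score among the 132 members on 2L. The next clusters inward, at 17529 to 20038 and 20401 to 22944, had lower combined scores of 0.91 and 0.81.

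On 3R the outermost cluster, at 27896016 to 27899464, ended 5589 bp before the end of the arm. It scored 1.71 in replicate 1 and 1.59 in replicate 2, and its combined score of 1.64 was the 3rd highest of the 111 members on 3R. The next inward (27892768 to 27895796) reached 1.31 in replicate 1 and 1.32 in replicate 2, and the one after it, at 27876556 to 27879332, scored 0.71 and 0.96. On 2L and on 3R the combined scores thus stepped down over the 3 outermost clusters. The decline did not go on inward. The next cluster on 2L, at 65431 to 68473, scored 1.06. On 3R the score was 0.59 at 27839882 to 27842374 and 0.79 at 27810437 to 27812570.

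On 3L the first cluster began 122016 bp from the end in the combined list, 122728 bp in replicate 1 and 123026 bp in replicate 2. It was 5298 bp wide, at 3L 122017 to 127314, and scored 0.62 in replicate 1 and 0.50 in replicate 2, below the median of either list (0.79 and 0.76). A second wide cluster of 5544 bp followed at 127521 to 133064, with 1.03 in replicate 1 and 0.82 in replicate 2. The next, at 136249 to 138739, was found in replicate 1 alone. The strongest site of this tip lay further in, at 3L 221269 to 226985.

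**Figure D1:**
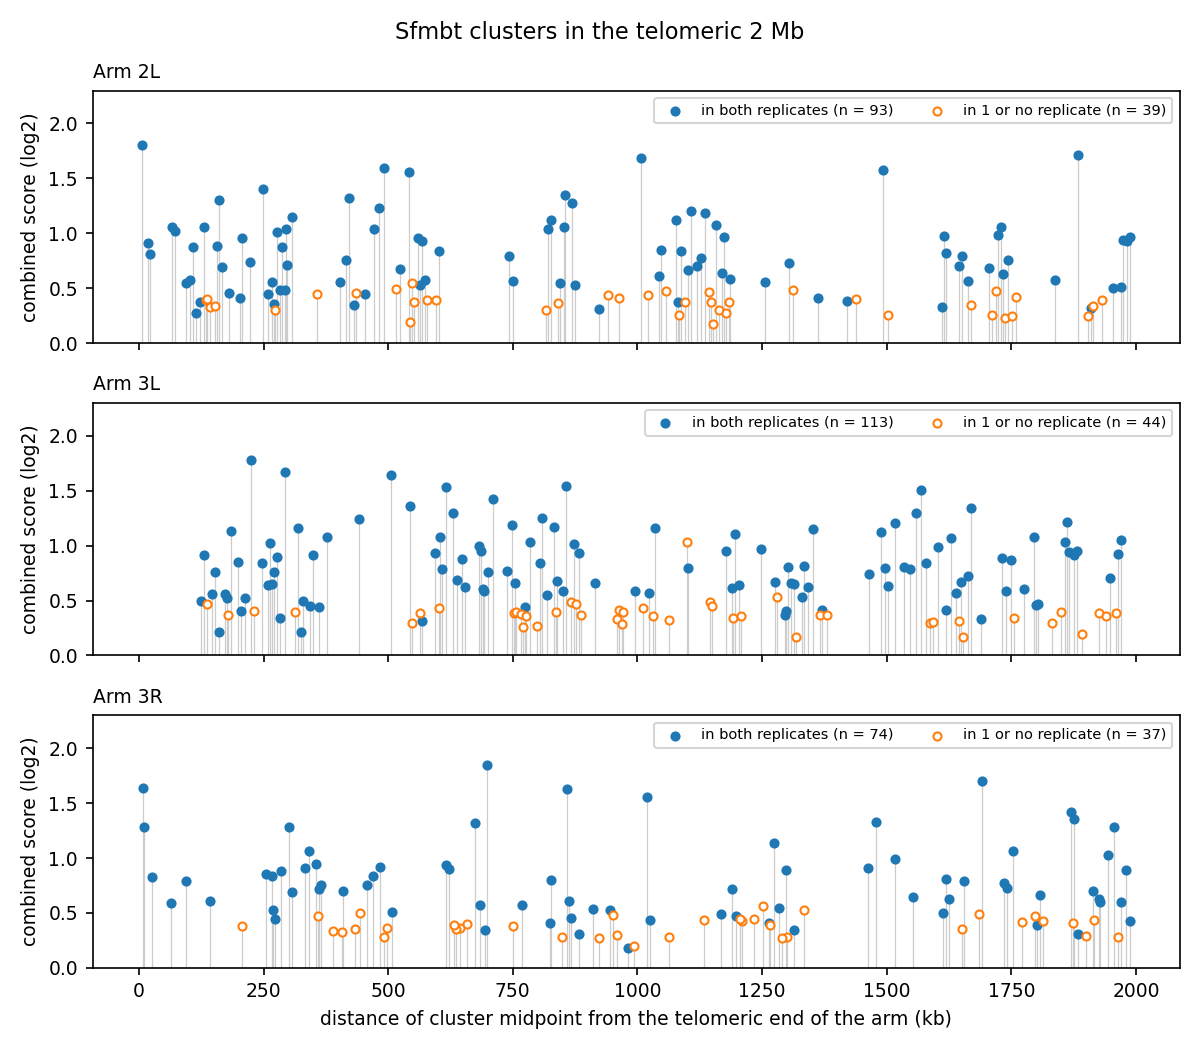
Combined score (log2) of each of the 400 members against the distance of its midpoint from the telomeric end of its arm (kb), 1 panel per arm; filled points were found in both replicates, open points in 1 or no replicate. The outermost points of 2L and 3R stand at 1.80 and 1.64, and on 3L no point lies in the outer 122 kb.

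Most members were found in both replicates. Each replicate had a cluster overlapping by at least 1 bp at 280 of the 400 members (70.0%, 95% exact binomial interval 65.2 to 74.5%). In the whole combined list this share was 65.1%. In the middle of the same arms, taken as sequence at least 5 Mb from both ends, it was 1969 of 2886 (68.2%, interval 66.5 to 69.9%), so the tips and the middle could not be told apart by this measure. By arm the share at the tip was 70.5% on 2L, 72.0% on 3L and 66.7% on 3R, against 67.7%, 65.9% and 70.4% in the middle of these arms. The intervals cover counting error only.

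A further 45 members (11.2%) were found in replicate 1 alone, 19 (4.75%) in replicate 2 alone and 56 (14.0%) in neither list. In the middle these shares were 9.32%, 6.31% and 16.1%, and in the whole combined list 8.69%, 7.33% and 18.9%. A member of replicate 1 alone stood above the rest, and is named after its value was seen. It lay at 3L 1097813 to 1099894 and scored 1.37 in replicate 1, with a combined score of 1.03, where the next highest of its kind had 0.56. The nearest cluster of replicate 2 began 558 bp away, at 1100453 to 1103684, and scored 0.64. Members in neither list were short and weak, with a median width of 1298 bp and combined scores up to 0.55. For the 280 members found in both, the median was 2750 bp for width and 0.79 for score. In the replicates' own lists, 289 of the 337 tip clusters of replicate 1 (85.8%) overlapped a cluster of replicate 2, against 87.7% in the middle and 87.9% over its whole list. For replicate 2 this was 299 of 320 (93.4%), against 91.2% in the middle and 89.5% over its whole list.

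The 2 replicates gave close scores at the tips. Across the 280 members found in both, scores had a median of 0.87 in replicate 1 and of 0.79 in replicate 2, and replicate 1 was higher by 0.069 ± 0.19 on average (SD over clusters). The scale of each list has its own constant, so an offset between lists cannot be read. With the median difference of the whole list (0.029) subtracted, 3 of the 280 (1.07%) differed by more than 0.5. This share was 3.57% over the whole list and 3.71% in the middle. At each of the 3 clusters replicate 1 was higher, as it was at 72 of the 73 such clusters in the middle.

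These 3 clusters are named because of their gap, after their values were seen. They were at 2L 1490935 to 1493168, with 1.97 in replicate 1 and 0.99 in replicate 2, at 3R 25946599 to 25949413, with 1.75 and 0.82, and at 3R 26027658 to 26030420, with 1.69 and 0.96.

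**Figure D2:**
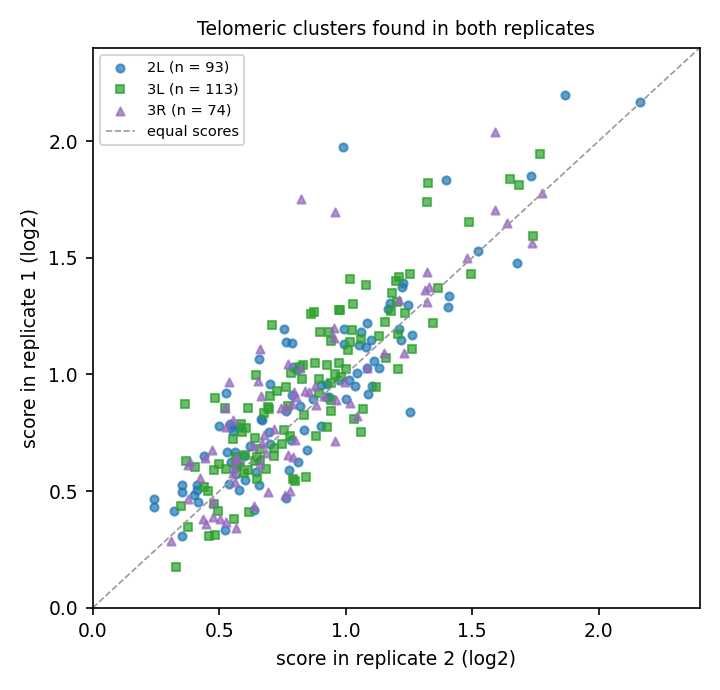
Score in replicate 1 against score in replicate 2 (both log2) for the 280 members found in both replicates, by arm, with a dashed line at equal scores. Points keep close to the line, and the 3 farthest from it lie on the side of replicate 1.

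The question set for these regions was whether density, width and score at the tips differ from the middle of the same arms. The answer differed between the arms. Clusters were denser, covered more sequence, were slightly wider and scored slightly higher at the tips of 2L and 3L than in their middle, and sparser, with less sequence covered and a lower median score, at the tip of 3R. Each of these differences had the same sign in both replicates. The regions come from 1 pair of libraries, and an exact two-sided sign-flip permutation over 2 replicates cannot give a p below 0.5. No p is therefore given for these differences, and they are set beside the spread between the replicates.

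The 3L tip was the densest of the 3. It held 68.5 clusters per Mb in replicate 1 and 65.5 in replicate 2, against 50.9 and 48.4 in the middle of 3L. The tip exceeded the middle by 17.4 ± 0.37 clusters per Mb (SD, n = 2), a ratio of 1.35 averaged over the replicates. The 2L tip held 54.5 and 52.5 clusters per Mb, against 46.3 and 45.8 in the middle of 2L, a difference of 7.43 ± 1.03. Both differences were larger than the spread between the replicates. That spread does not measure how density varies along an arm. In replicate 1, full 2 Mb steps ran from 28.5 to 61.5 clusters per Mb on 2L and from 27.5 to 69.0 on 3L.

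The 3R tip went the other way. It held 45.5 clusters per Mb in replicate 1 and 42.0 in replicate 2, against 54.3 and 53.2 in the middle of 3R, a difference of -9.98 ± 1.69 (SD, n = 2). The combined list gave 66.0, 78.5 and 55.5 clusters per Mb at the tips of 2L, 3L and 3R, against 59.2, 63.9 and 66.3 in their middles. Pooled over the 3 arms, the tips had 54.8 ± 2.00 clusters per Mb and the middles 50.2 ± 0.98 (SD, n = 2). This pooled excess rested on 3L, because in the combined list it was 3.18 clusters per Mb with the 3 arms and -2.55 without 3L.

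Covered sequence followed density. Clusters covered 18.2% of the 3L tip in replicate 1 and 16.3% in replicate 2, against 12.9% and 11.9% of the middle of 3L. They covered 15.3% and 14.1% of the 2L tip, against 11.8% and 11.5% of its middle. On 3R these shares were 12.1% and 10.6% at the tip, against 14.3% and 13.5% in the middle. The difference was 4.91 ± 0.63 percentage points on 3L, 3.04 ± 0.64 on 2L and -2.53 ± 0.48 on 3R (SD, n = 2).

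**Figure D3:**
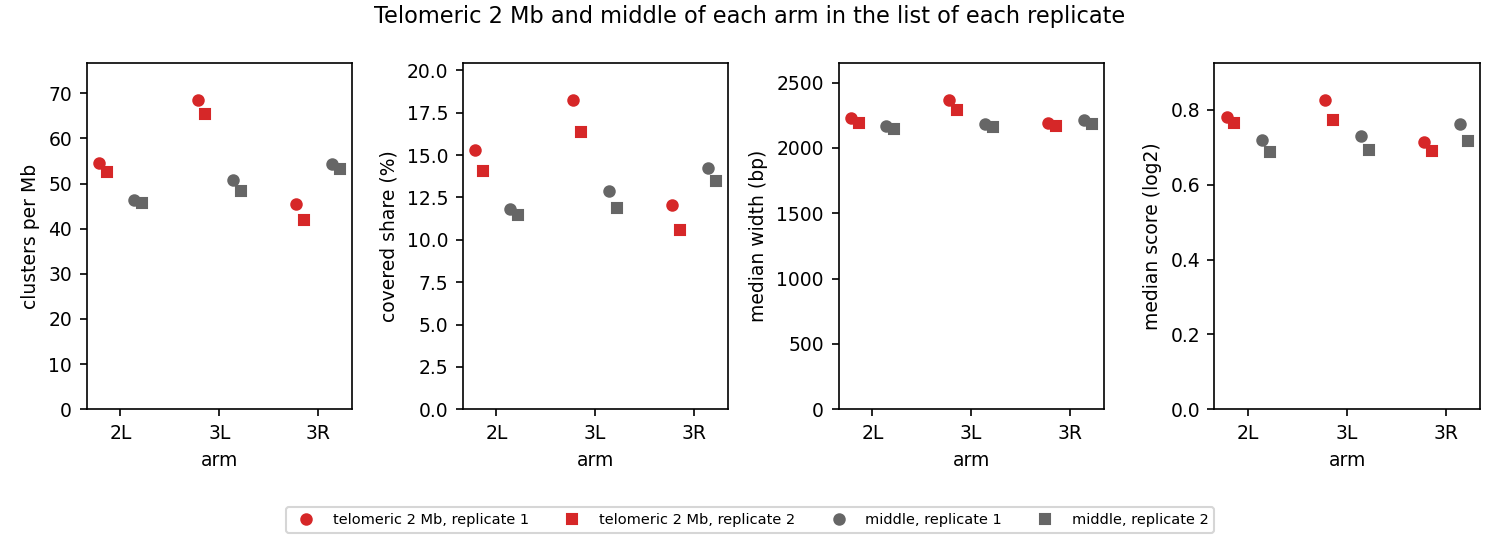
Clusters per Mb, covered share (%), median width (bp) and median score (log2) in the telomeric 2 Mb (red, left of each pair) and the middle (grey, right) of 2L, 3L and 3R; circles are replicate 1 and squares replicate 2, each from its own list. Density and covered share are higher at the tips of 2L and 3L and lower at that of 3R in both replicates, and so is the median score.

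Median widths at the tips were above the middle on 3L and 2L and close to it on 3R. The median width at the 3L tip was 2366 bp in replicate 1 and 2288 bp in replicate 2, against 2186.5 and 2157 bp in the middle, a difference of 155 ± 34.3 bp (SD, n = 2). At the 2L tip the medians were 2231 and 2188 bp, against 2167 and 2145.5 bp. At the 3R tip they were 2193 and 2171 bp, against 2212 and 2179.5 bp, a difference of -13.75 ± 7.42 bp (SD, n = 2). Among combined clusters found in both replicates the direction turned, with the 3R tip wider by 266.5 bp. Over the combined list the quartiles at the tips were 1942 and 3093 bp, against 1885 and 2915 bp in the middle.

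Wide clusters made up a larger share of the members than of the middle, but a share close to that of the whole lists. In the combined list 38 of 400 members (9.50%, exact interval 6.81 to 12.8%) were wider than 5 kb, against 167 of 2886 (5.79%, interval 4.96 to 6.70%) in the middle and 8.88% of the whole list. In the replicates' own lists the shares were 22 of 337 (6.53%) in replicate 1 and 16 of 320 (5.00%) in replicate 2, against 4.23% and 3.69% in the middle and 6.54% and 6.08% over the whole lists. By arm the replicates' shares were 8.26% and 6.67% at the 2L tip, against 4.15% and 3.86% in its middle, and 8.79% and 5.95% at the 3R tip, against 4.63% and 3.99%. On 3L they were 3.65% and 3.05% at the tip, against 3.78% and 3.12% in the middle, whereas the combined list gave 10.2% and 5.92%. The 38 wide members were each found in both replicates. In the middle, likewise, no cluster missing from a replicate was wider than 5073 bp. Of the 38 wide members, 19 spanned more than 1 cluster of at least 1 replicate, a count not made for wide clusters elsewhere. The combined list thus joins some neighbours that a replicate's list keeps apart.

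The widest member of 3L spanned 10159 bp at 624779 to 634937 and was the single member over 10 kb. It scored 1.43 in replicate 1 and 1.26 in replicate 2, where 2 clusters lay under it. The widest on 2L, 8683 bp at 477857 to 486539, scored 1.30 and 1.25 and was 1 cluster in each replicate. The widest on 3R, 8103 bp at 26274946 to 26283048, had a combined score of 0.62 and covered 3 clusters in each replicate. In the middle of the arms 13 of 2886 clusters were wider than the widest member, up to 32802 bp. The middle holds far more clusters than the tips, so its larger maximum is not read as a trait of either.

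Median scores were above the middle at the tips of 3L and 2L and below it at that of 3R. At the 3L tip scores had a median of 0.83 in replicate 1 and of 0.77 in replicate 2, against 0.73 and 0.69 in the middle of 3L, a difference of 0.088 ± 0.012 (SD, n = 2). At the 2L tip the medians were 0.78 and 0.76, against 0.72 and 0.69, a difference of 0.068 ± 0.012. At the 3R tip they were 0.71 and 0.69, against 0.76 and 0.72, a difference of -0.036 ± 0.015. Among combined clusters found in both replicates the 3R difference all but vanished, at -0.00062 (0.737 at the tip and 0.737 in the middle). In that set it was 0.086 on 2L and 0.082 on 3L. In the combined list the quartiles of the score were 0.40 and 0.92 at the tips, against 0.38 and 0.83 in the middle.

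Strong clusters were present at each tip at about the rate of the genome. Of the 400 members, 40 (10.0%, exact interval 7.24 to 13.4%) had a score among the top 10% of the combined list, against 236 of 2886 (8.18%) in the middle. There were 13 on 2L, 15 on 3L and 12 on 3R. The very highest scores lay elsewhere. The strongest member had a combined score of 1.84. Of the 8434 combined clusters 75 scored higher, 20 of them among the 2886 in the middle of the same arms. Both sets are far larger than the 400 members, so the lower maximum is not read as a trait of the tips.

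The strongest member lay on 3R at 27205828 to 27208966, 698 kb from the end. It scored 2.04 in replicate 1 and 1.59 in replicate 2 (mean 1.82 ± 0.32, SD, n = 2). Next on 3R came the cluster at 26210752 to 26216200, a 5449 bp region with 1.78 in each replicate. The outermost cluster of the arm came 3rd, as given above. The 4th, at 27043124 to 27049777, was 6654 bp wide and scored 1.65 in replicate 1 and 1.64 in replicate 2, and the 5th, at 26884331 to 26888373, scored 1.56 and 1.74. Of the 5, the cluster at 27205828 showed the largest gap between the replicates.

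On 3L the 5 highest combined scores all lay in the outer 1 Mb. The highest, at 221269 to 226985, had a score of 1.94 in replicate 1 and 1.77 in replicate 2. The 2nd highest, at 290824 to 293694, scored 1.84 and 1.65. The others were at 504840 to 507297 (1.59 and 1.74), 856159 to 859089 (1.82 and 1.33) and 615416 to 618251 (1.74 and 1.32). Replicate 1 was higher at 4 of these 5, and the SD between replicates ran up to 0.35. Both include any offset between the lists, so the order of the replicates is not read as a trait of these sites.

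On 2L the cluster at 1005482 to 1008562 had the highest mean of the replicates, with 2.17 in replicate 1 and 2.16 in replicate 2. Its combined score of 1.69 was the 3rd on the arm, after the outermost cluster and the cluster at 1883342 to 1886239, which scored 1.85 and 1.73. The 4th, at 489192 to 492133, scored 1.83 and 1.40, and lay just inward of the widest cluster of the tip. The 5th was the cluster at 1490935, which differed most between the replicates.

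Within the 2 Mb, clusters were not evenly spread, and the arms differed in where they crowded. In steps of 500 kb from the end, 2L had 80.0, 44.0, 48.0 and 46.0 clusters per Mb in replicate 1, and 84.0, 36.0, 46.0 and 44.0 in replicate 2. The excess of the 2L tip over the middle of 2L (46.3 and 45.8) thus lay in its outer 500 kb. Clusters covered 24.6% of that step in replicate 1 and 23.9% in replicate 2. Of its 44 combined clusters 37 (84.1%) were found in both replicates, against 87.5% in the outer 500 kb of 3L, 73.3% in that of 3R and 65.1% of the whole list.

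On 3L the crowding lay further in. The 4 steps had 62.0, 82.0, 58.0 and 72.0 clusters per Mb in replicate 1, and 62.0, 78.0, 44.0 and 78.0 in replicate 2. The outermost step includes the 122 kb without clusters, and its density was still above that of the middle of 3L (50.9 and 48.4). The step from 1 to 1.5 Mb lay below the middle in replicate 2 but not in replicate 1.

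On 3R density was 48.0, 44.0, 34.0 and 56.0 clusters per Mb in replicate 1, and 48.0, 38.0, 26.0 and 56.0 in replicate 2. The outer 3 steps lay below the middle of 3R (54.3 and 53.2) and the innermost slightly above it. The median score followed another order, with 0.88 in replicate 1 and 0.80 in replicate 2 in the outermost step, against 0.76 and 0.72 in the middle of 3R. Clusters were sparsest from 1 to 1.5 Mb. The median scores of the next step inward from the outermost were 0.55 and 0.60. The outermost 200 kb of 3R held 6 combined clusters, and each was found in both replicates.

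In windows of 100 kb, the tips held 0 to 15 combined clusters, with a median of 7. The fullest was 2L 1100001 to 1200000 with 15, of which 9 were found in both replicates, and clusters covered 46.1% of it. The window 2L 200001 to 300000 held 14, of which 13 were found in both, and 42.9% was covered. On 3L the windows 700001 to 800000 and 800001 to 900000 adjoin and held 13 each. On 3R the fullest held 10, which 3 windows shared, among them the innermost, 25905054 to 26005053, and 26605054 to 26705053. The empty window was the outermost of 3L.

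Crowding and gaps lay side by side. On 2L no combined cluster lay between 603571 and 739165, a gap of 136 kb, where replicate 1 had 1 cluster and replicate 2 had 0. The longest gap on 3R, 126 kb at 26444429 to 26570092, held 0 clusters in both replicates. On 3L the longest gap between clusters was 82.5 kb, at 1380342 to 1462809, with 1 cluster in replicate 1 and 0 in replicate 2. The longest gap in the middle was 175 kb on 2L, 156 kb on 3L and 125 kb on 3R, so gaps of this length were not particular to the tips. The median gap between neighbours at the tip was 4178 bp on 2L, 4651 bp on 3L and 8554 bp on 3R. In the middle of these arms it was 5577, 5712 and 5835 bp.

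Counted over the whole arms in full steps of 2 Mb from the telomeric end, the tips stayed within the range of the other steps for density. The 3L tip had 137 clusters in replicate 1 and 131 in replicate 2, and 1 of the other 11 steps had more in each replicate, with 138 and 132. The 2L tip had 109 and 105, and 1 of the other 10 steps had more, with 123 and 121. The 3R tip had 91 and 84, and 9 of the other 12 steps had more in replicate 1 and 10 in replicate 2. The lowest step of 3R had 73 and 71. In the combined list the tips held 132 clusters on 2L, 157 on 3L and 111 on 3R. There 3 of the other steps had more on 2L, 2 on 3L and 9 on 3R. A high density was therefore reached at other places of the same arms as well.

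For width and score the 3L tip stood at the top of its arm. Its median width was above that of each of the other 11 steps in the combined list and in both replicates. It was 2366 bp in replicate 1, where the next highest was 2293 bp, and 2288 bp in replicate 2, where the next highest was 2282 bp. Its median score was above each of the other steps in replicate 1 (0.83, next 0.76) and in replicate 2 (0.77) it was below the neighbouring step (0.80) and above the other 10. On 2L 3 of the other 10 steps had a higher median score than the tip in replicate 1 and 2 in replicate 2. On 3R each of the other 12 steps was higher in replicate 1, with 0.71 at the tip and 0.72 in the lowest of the others, and 6 were higher in replicate 2.

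**Figure D4:**
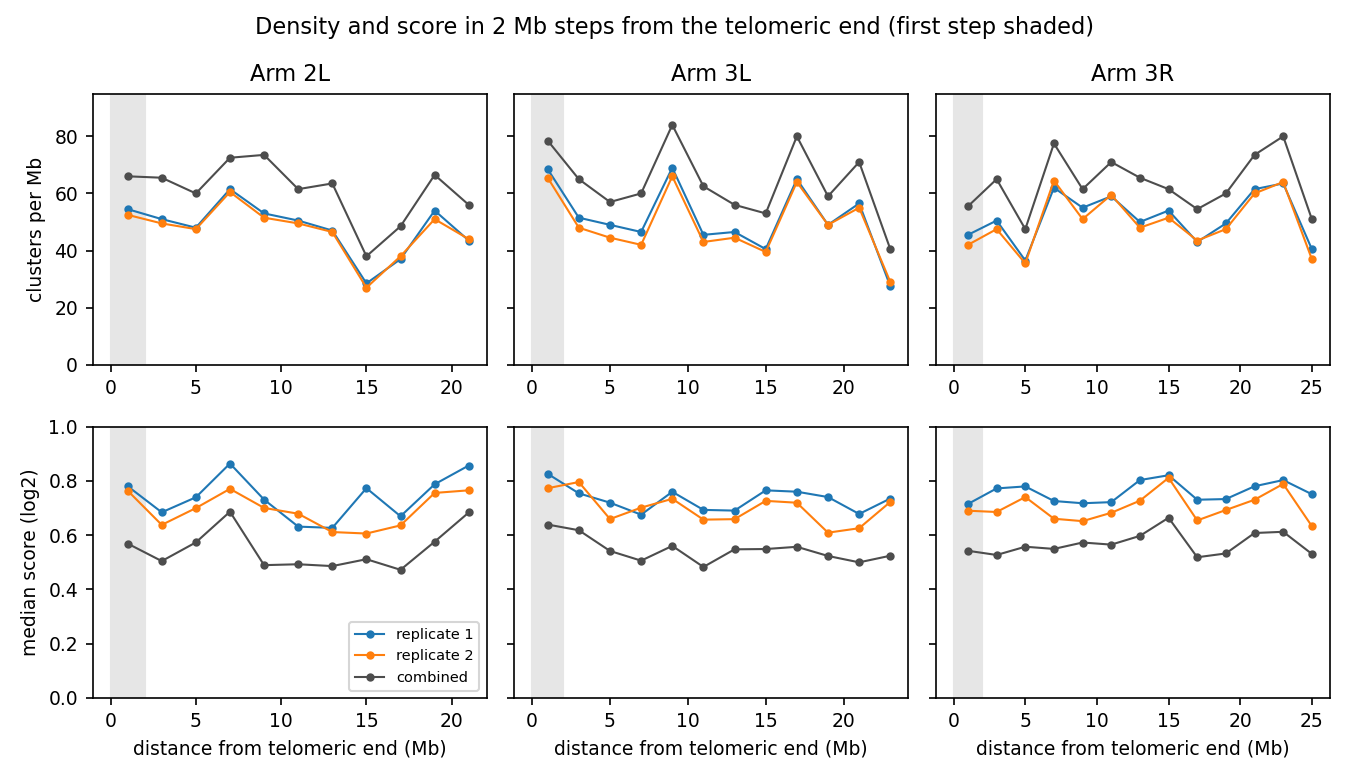
Clusters per Mb (upper row) and median score (log2, lower row) in full 2 Mb steps from the telomeric end of 2L, 3L and 3R, for replicate 1, replicate 2 and the combined list; the shaded step is the telomeric 2 Mb. The density of the shaded step lies inside the range of the other steps on each arm.

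The edge at 2 Mb is a round number, and the last members inside it were at 2L 1985522 to 1991631 (combined score 0.96), 3L 1968762 to 1972316 (1.05) and 3R 25915192 to 25917240 (0.42). The first clusters outside were at 2L 2005093 to 2007131 (0.41), 3L 2149269 to 2152781 (0.55) and 3R 25901690 to 25903404 (0.37). Those on 2L and 3R were found in replicate 2 alone. On 3L the edge fell in a stretch of 177 kb without a combined cluster, longer than the longest gap of 156 kb in the middle of 3L. The size of the density difference depended on the length of the stretch. With 3 Mb in place of 2 Mb, the combined list gave 69.7 clusters per Mb at the 3L tip, 5.79 above the middle, in place of 14.6. At the 3R tip it gave 64.3, a difference of -1.96 in place of -10.8. On 2L the difference was 7.49 with 3 Mb and 11.8 with 1 Mb, in place of 6.82. In the combined list the direction of the density difference held with 1 Mb and with 3 Mb on each of the 3 arms. The -1.96 on 3R was little larger in size than the SD of 1.69 between the replicates' differences with 2 Mb.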

How the data were processed

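The authors deposited 3 lists of regions of significant enrichment, 1 per ChIP replicate and 1 for the replicate set, with release 5 coordinates of FlyBase, per the file headers. The submitters' processing notes list Bowtie 0.12.7. The sources used here do not give the peak caller, its threshold, read filters (which decide signal in subtelomeric repeats) or the way of combining replicates. The deposited scores are log2 values. This was settled from the values: powers of 2 of score differences matched fractions with a denominator of at most 3000 (relative tolerance 1e-11) for 98.7% to 99.9% of clusters per list, and base e or 10 for under 1%. The other values used from the deposited files, starts and ends in bp, count from 1.

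Lists were used as deposited, without filters. Overlap meant at least 1 bp, and where several clusters of a replicate lay under a combined one, the highest score was taken. Scores of the tips and the middle were compared within a list. Gaps and SDs between the replicates' scores of a cluster include any offset between their lists, except where the median difference was subtracted. Covered shares clip clusters at the edges. Shares carry exact (Clopper-Pearson) intervals. The members, rules and alternatives were chosen with earlier results of these data known. Named were, per arm, the 5 highest scores found in both replicates, the widest, outermost, last inside and first outside cluster, the 2 fullest windows and the longest gap. The next 2 clusters after each outermost one, and those named further inward of them on 2L and 3R, were added after values were seen. So were the 500 kb steps, the largest replicate gaps and the strongest member of replicate 1 alone. Genes and sequences were not assigned, since the available gene table describes release 6. The summaries were checked on simulated data. Software was matplotlib 3.10.9, SciPy 1.17.1, pandas 2.3.3, NumPy 2.4.6 and Python 3.11.15.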

Additional observations from a re-analysis of the deposited data

Results flagged for a closer look

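The tip minus the middle had opposite signs on different arms, in each replicate, for 4 measures. Density was higher at the tip by 7.43 clusters per Mb on 2L and 17.4 on 3L (means of 2 replicates), and -9.98 on 3R. The covered share differed by 3.04 percentage points on 2L, 4.91 on 3L and -2.53 on 3R. The median width differed by 53.25 bp on 2L, 155 bp on 3L and -13.75 bp on 3R. The median score differed by 0.068 on 2L, 0.088 on 3L and -0.036 on 3R. The differences between the arms were not tested.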

How the results depend on the processing

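Over the 3 arms and the combined list, the tip exceeded the middle by 3.18 clusters per Mb, 106 bp of median width, 0.041 of median score, 2.08 percentage points of covered share and 1.77 points of the share found in both replicates. Leaving out 3L gave -2.55 clusters per Mb, 22 bp, 0.0095 of score, 0.23 points covered and -0.62 points found in both. Leaving out 3R gave 10.6 clusters per Mb, 142 bp, 0.089 of score and 4.71 points covered, and leaving out 2L gave 1.79 clusters per Mb and 1.40 points covered. A stretch of 1 Mb gave 6.52 clusters per Mb, 248.5 bp and 3.99 points covered, and one of 3 Mb gave 46.5 bp. By arm, 3 Mb gave density differences of 7.49 on 2L, 5.79 on 3L and -1.96 on 3R, against 6.82, 14.6 and -10.8 with 2 Mb, and covered differences of 3.93, 2.87 and -1.38 points, against 3.69, 5.80 and -2.85. With 1 Mb they were 11.8, 18.1 and -9.29 clusters per Mb and 6.67, 7.81 and -2.10 points. The width difference with 1 Mb was 313.5 bp on 2L and 356 bp on 3L, against 63.5 and 215 bp with 2 Mb, and 136 bp on 3L with 3 Mb. The 3R score difference of -0.034 was -0.0077 with 1 Mb and with 3 Mb, and -0.00062 with clusters found in both replicates. Clusters at or above the median score gave 4.26 clusters per Mb and 192.5 bp. Clusters found in both replicates gave 269 bp and 0.064 of score. Each replicate's list alone gave 3.80 to 5.24 clusters per Mb, 40 to 68 bp, 0.035 to 0.058 of score and 1.28 to 2.08 points covered. On 3R the width difference of -10 bp became 3 bp with 1 Mb, 251.5 bp with clusters at or above the median score and 266.5 bp with those found in both replicates. With clusters at or above the median score, the share found in both differed by -0.43 points on 3L and 1.57 on 3R. The causes were not tested. No paired analysis was possible because the replicate numbers shared in the labels join each ChIP to its input, and no input list was used. Tip and middle were compared within each replicate. Depth is unknown and limits every value to the spread of 2 replicates.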
